A study of Homo sapiens with 6 samples.

Results

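The transcripts of EPCAM and of 4 genes that act with it at the epithelial cell surface, the membrane-anchored serine proteases ST14 (matriptase) and PRSS8 (prostasin) and the Kunitz-type protease inhibitors SPINT1 (HAI-1) and SPINT2 (HAI-2), were examined in PANC-1 cells with ZDHHC20 silencing. These were 5 of the 27394 genes in the deposited table. They had been selected on earlier results from the same libraries, in which EPCAM, ST14 and SPINT1 were seen to be higher, so their differences are given as descriptions with no test. PANC-1 is an established human pancreatic cancer cell line. RNA-seq libraries were made from 3 replicates labelled with a control shRNA (shControl) and 3 labelled with an shRNA against the palmitoyltransferase gene ZDHHC20 (shZDHHC20). The deposited columns are headed NC and siZDHHC20 instead. For these libraries the paper does not say how the silencing RNA was delivered or which of its shRNAs was used. All 6 libraries came from cells of a single line. The study describes its in vitro experiments in general as having biological replicates without saying so of these libraries. Where they were not separate cultures, p-values measure only the spread between these libraries, which may be technical.

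EPCAM is a glycoprotein of the epithelial cell surface that binds and stabilizes claudins, and it is shed and cut within the membrane by proteases. Matriptase is a transmembrane serine protease that activates prostasin, growth factor precursors and protease-activated receptors, and it can also cleave EPCAM and claudin-7. HAI-1 and HAI-2 are transmembrane inhibitors whose Kunitz domains block matriptase and prostasin, and inherited loss of either EPCAM or HAI-2 damages the intestinal epithelium.

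The deposited values behaved as gene counts divided by 1 factor per library and are called normalized counts here. They summed to between 17083277 and 18007664 per library. ZDHHC20 had 2001, 2033 and 1940 normalized counts in the shControl libraries and 872, 779 and 893 with shZDHHC20. Of 22189 genes averaging 1 or more, 2541 passed an adjusted p under 0.05 (limma, Benjamini-Hochberg), or 11.5%, with 4.61% higher and 6.84% lower with shZDHHC20, and the groups did not overlap for 28.6%. shZDHHC20 replicate 2 stood apart from the other shZDHHC20 libraries, with an SD of the log2 difference of 0.178 and 0.198 from replicates 1 and 3, against 0.0674 to 0.0722 for all other pairs within a group. Without it, 4454 genes passed. Of 7 duct epithelium markers listed, 6 had a row. Their sum, most of it KRT8, ran from 84334 to 86590 in shControl and from 78102 to 79133 in shZDHHC20 libraries. The fibroblast list had 3 of 5 markers with a row, summing to between 3964 and 4038 in shControl and between 3193 and 3470 in shZDHHC20 libraries, nearly all of it COL1A1. Markers of other cell types were few and low (2 of 5 for immune cells, summing to 45.1 at most, 2 of 3 for endothelial cells, summing to 10.1 at most, and 1 of 5 for acinar cells, summing to 8.45 at most). In bulk libraries, fewer cells of one kind and less RNA per cell cannot be told apart.

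EPCAM was about 7 times higher with ZDHHC20 silencing. It had 65.7, 95.4 and 56.1 normalized counts in shControl replicates 1 to 3 and 534, 477 and 563 in shZDHHC20 replicates 1 to 3. Every shZDHHC20 library lay far above every shControl library, and the shControl libraries differed more among themselves, relative to their mean, than the shZDHHC20 libraries. The means were 72.4 ± 20.5 and 525 ± 43.7 (SD, n = 3 each), a ratio of 7.25. On the log2(value + 0.1) scale the difference was 2.89, with a standard error of 0.166 and a 95% interval of 2.53 to 3.25. Among the 12051 genes averaging 50 or more, this was the third largest log2 fold change, rank 3. EPCAM lies at chr2:47345158-47387601 on the plus strand of GRCh38. Its annotated span holds no other protein-coding gene, only the small RNA genes MIR559, RF00017 and, on the other strand, RN7SKP119.

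**Figure D1:**
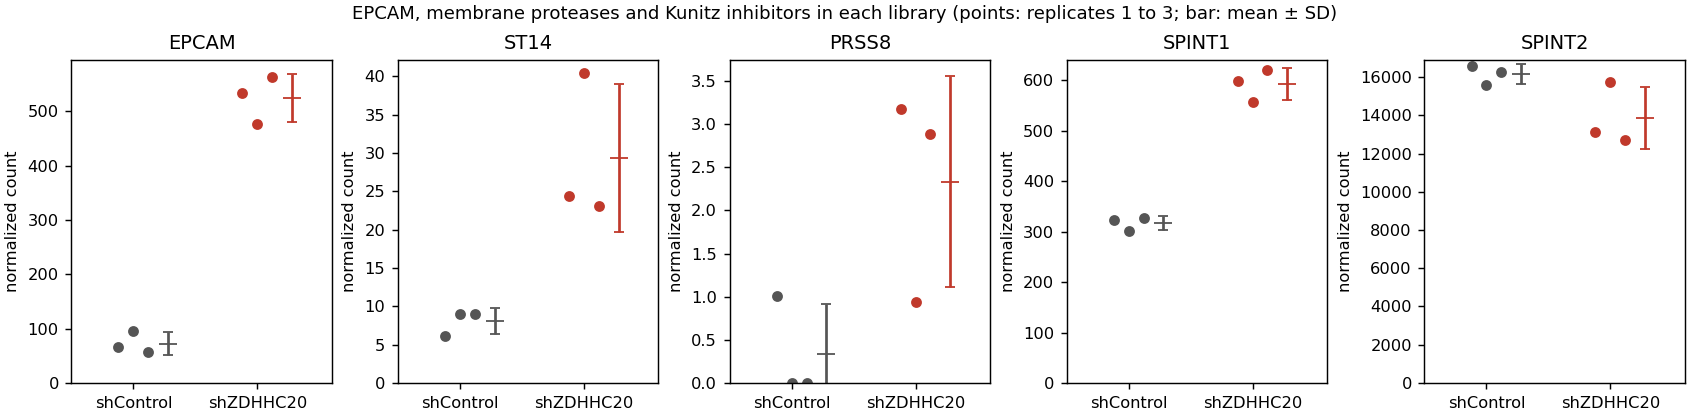
Normalized counts (linear axes from 0, a scale for each gene) of EPCAM, ST14, PRSS8, SPINT1 and SPINT2 in 3 shControl (grey) and 3 shZDHHC20 (red) libraries, in order of replicate number, with the mean ± SD beside the points. EPCAM, ST14 and SPINT1 were higher in every shZDHHC20 library, PRSS8 was near 0 throughout (its lower shControl bar is cut off at 0), and SPINT2 overlapped through shZDHHC20 replicate 2 at 15743.

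ST14, which encodes matriptase, was detected at a low level and was higher with ZDHHC20 silencing. Its normalized counts were 6.06, 9.04 and 9.01 with shControl and 24.4, 40.4 and 23.1 with shZDHHC20. The groups did not overlap, and shZDHHC20 replicate 2 was the highest library. The means were 8.04 ± 1.71 and 29.3 ± 9.63 (SD, n = 3 each), a ratio of 3.64, and the log2 fold change was 1.83 with a standard error of 0.394 and a 95% interval of 0.98 to 2.68. Without shZDHHC20 replicate 2 it was 1.57. In whole steps of each library's smallest value, as single reads would be, ST14 had 6, 9 and 9 with shControl and 23, 43 and 24 with shZDHHC20, so a few reads decided each value. The gene lies at chr11:130159562-130210376 on the plus strand, and no other annotated gene overlaps it.

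PRSS8, which encodes prostasin, a protease held at the membrane by a lipid anchor, was at the edge of detection. It had 1.01, 0 and 0 normalized counts with shControl and 3.18, 0.939 and 2.89 with shZDHHC20. The groups overlapped, because shZDHHC20 replicate 2 lay below shControl replicate 1. The means were 0.337 ± 0.583 and 2.34 ± 1.22 (SD, n = 3 each). In whole steps this was 1 against 7 in all, a depth-adjusted ratio of 6.85 with an exact 95% interval of 0.881 to 309 that covers counting error only. A difference in PRSS8 was therefore not detectable at this depth. The log2 fold change of the fit, 3.28, had a standard error of 1.75, and it was 1.32 with a pseudocount of 1 in place of 0.1. PRSS8 lies at chr16:31131433-31135762 on the minus strand, where AC009088.3 is annotated on the other strand.

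SPINT1, the gene of HAI-1, was higher with ZDHHC20 silencing. It had 323, 300.3 and 326 normalized counts with shControl and 598, 558 and 621 with shZDHHC20. The spread within each group was small beside the gap between them, and no libraries overlapped. The means were 317 ± 14.3 and 592 ± 31.8 (SD, n = 3 each), a ratio of 1.87, and the log2 fold change was 0.90 with a standard error of 0.0815 and a 95% interval of 0.73 to 1.08. It ranked 43 of the 12051 genes averaging 50 or more. SPINT1 lies at chr15:40844018-40858207 on the plus strand. The antisense gene SPINT1-AS1 overlaps it, and its log2 fold change was 0.08 (limma, adjusted p = 0.964).

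SPINT2, the gene of HAI-2, had the highest level of the 5 genes and was slightly lower with ZDHHC20 silencing. Its normalized counts were 16602, 15584 and 16259 with shControl and 13105, 15743 and 12722 with shZDHHC20. Replicates 1 and 3 of shZDHHC20 lay below every shControl library, while replicate 2 lay within the shControl range. The means were 16148 ± 518 and 13857 ± 1644 (SD, n = 3 each), or 85.8% of shControl. The log2 fold change was -0.23, with a standard error of 0.067 and a 95% interval of -0.37 to -0.08. It was -0.32 without shZDHHC20 replicate 2 and -0.13 after quantile normalization. SPINT2 lies at chr19:38244035-38292614 on the plus strand. PPP1R14A, an inhibitor of myosin phosphatase, lies wholly within it on the other strand and also fell, from 4797 ± 258 to 2789 ± 218 normalized counts (SD, n = 3 each; log2 fold change -0.78, limma, adjusted p = 7.39e-06). The library kit keeps strand, but whether the counting used strand is not given in the sources used here, and the part of PPP1R14A reads in the SPINT2 values was not tested. AC011479.1, also annotated as protein-coding, overlaps SPINT2 on the same strand, and its part in these values was not tested either.

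In the fit across all genes, 4 of the 5 genes (EPCAM, ST14, SPINT1 and SPINT2) were past the threshold and 3 had groups that did not overlap, beside the 11.5% and 28.6% of all genes given above. Since the genes were chosen by their values in this contrast, nothing is read from these counts. PRSS8 passed the filter on low values through its shZDHHC20 libraries. The plot of fold change against level places the 5 genes among all genes tested.

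**Figure D2:**
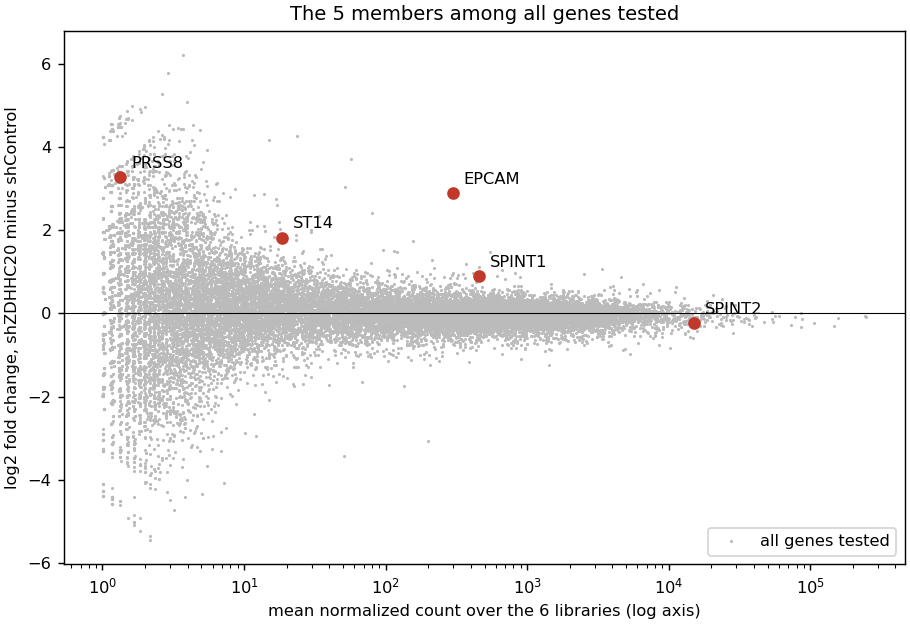
Log2 fold change of shZDHHC20 over shControl (vertical axis) against the mean normalized count over the 6 libraries (log axis) for 22189 genes (grey points), with the 5 genes in red. EPCAM at 2.89 lies above nearly all genes of its level, SPINT1 at 0.90 lies at the upper edge, SPINT2 at -0.23 lies below 0 at the right, and ST14 and PRSS8 lie where the spread of all genes is wide.

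Levels were then compared between the genes after division by the length of their annotated exons. Per kb, SPINT2 was far above the rest, with 3106 ± 99.7 in shControl and 2665 ± 316 in shZDHHC20 libraries (SD, n = 3 each, as for the following). SPINT1 was at 89.4 ± 4.03 and 167 ± 8.98. EPCAM was at 28.7 ± 8.14 and 208 ± 17.4. These levels put SPINT1 above EPCAM in every shControl library and EPCAM above SPINT1 in every shZDHHC20 library, the only change in the order of the 5 genes. It depends on the annotated exon lengths used, 2519 bases for EPCAM and 3542 for SPINT1. Before division by length, SPINT1 was above EPCAM in all 6 libraries. ST14 was at 1.85 ± 0.393 and 6.73 ± 2.21, and PRSS8 was lowest, at 0.112 ± 0.194 and 0.776 ± 0.405.

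Ratios between these genes were then taken within each library. They are built from genes chosen by their values in this contrast, so they restate those differences and are no further result. Within each library, the ratio of EPCAM to SPINT1 per kb was 0.286, 0.447 and 0.242 with shControl and 1.26, 1.20 and 1.28 with shZDHHC20. SPINT1 made up 2.78%, 2.75% and 2.86% of the summed per-kb level of both inhibitors with shControl and 6.28%, 4.94% and 6.68% with shZDHHC20. SPINT2 thus supplied most of the inhibitor transcript in all 6 libraries. The summed inhibitors exceeded ST14 by a ratio of 1798 ± 485 with shControl and 439 ± 83.3 with shZDHHC20 (SD, n = 3 each), and the libraries of the groups did not overlap. The corresponding ratio of SPINT1 alone to ST14 was 50.3 ± 13.3 and 26.7 ± 8.55. The ratios to ST14 carry the counting error of its few reads, and they compare transcripts only, not protein or protease activity.

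**Figure D3:**
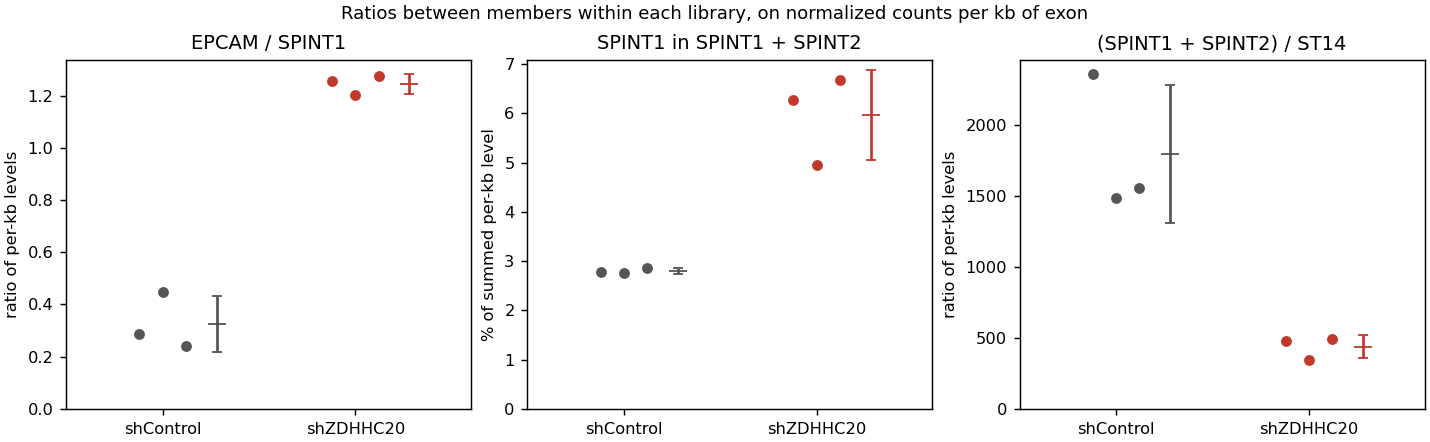
Ratios of per-kb levels within each library (linear axes from 0; grey, shControl; red, shZDHHC20; 3 libraries each in order of replicate number, with the mean ± SD beside them) for EPCAM over SPINT1, SPINT1 as a percentage of SPINT1 plus SPINT2, and the summed inhibitors over ST14. The groups do not overlap in any panel: the first ratio is 1.20 or more with shZDHHC20, and the last is 1798 ± 485 with shControl and 439 ± 83.3 with shZDHHC20. The genes were chosen by their values in this contrast, so these gaps are descriptions only.

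The genes whose centred log2 values were most like those of EPCAM over the 6 libraries were FBXL19-AS1 (root mean square difference 0.717), ADGRF1 (0.769), ART5 (0.775), RNF223 (0.881) and CDH1 (0.911), out of 12050 genes averaging 50 or more. FBXL19-AS1 is an antisense transcript, ADGRF1 an adhesion G protein-coupled receptor, ART5 an ADP-ribosyltransferase family member, RNF223 a RING finger gene and CDH1 the gene of E-cadherin. CDH1 had 273, 291 and 297 normalized counts with shControl and 608, 588 and 690 with shZDHHC20. SPINT1 ranked 32 by this measure (1.03) and SPINT2 ranked 10059 (1.59), while ST14 and PRSS8 were below the level compared. The measure is dominated by the difference between the groups, which all of these genes share by the way they were found. The 5 nearest genes had log2 fold changes of 1.13 to 1.52, against 2.89 for EPCAM. FBXL19-AS1 and RNF223, with shControl means of 49.9 and 47.2, reached the mean of 50 through their shZDHHC20 libraries. Without shZDHHC20 replicate 2, 3 of the 5 nearest genes remained.

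Nearest tested protein-coding genes beside the 5 genes were examined in the same fit. Beside EPCAM, CALM2 (a calmodulin gene, log2 fold change -0.03, adjusted p = 0.831, limma as for the following) did not pass. Neither did APLP2 (-0.06, adjusted p = 0.468) and ZBTB44 (-0.00141, adjusted p = 0.993) beside ST14. Beside PRSS8, the acetyltransferase gene KAT8 (0.07, adjusted p = 0.607) and PRSS36 (-0.47, adjusted p = 0.713) did not pass. Beside SPINT1, PPP1R14D (-0.81, adjusted p = 0.414) and RHOV (-0.04, adjusted p = 0.859) did not pass. Among the neighbours given here, those past the threshold both lay at SPINT2, the overlapping PPP1R14A and DPF1, a chromatin regulator gene that fell by 0.69 (adjusted p = 0.00168), while C19orf33 on the other side (0.93, adjusted p = 0.132) did not pass.

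**Figure D4:**
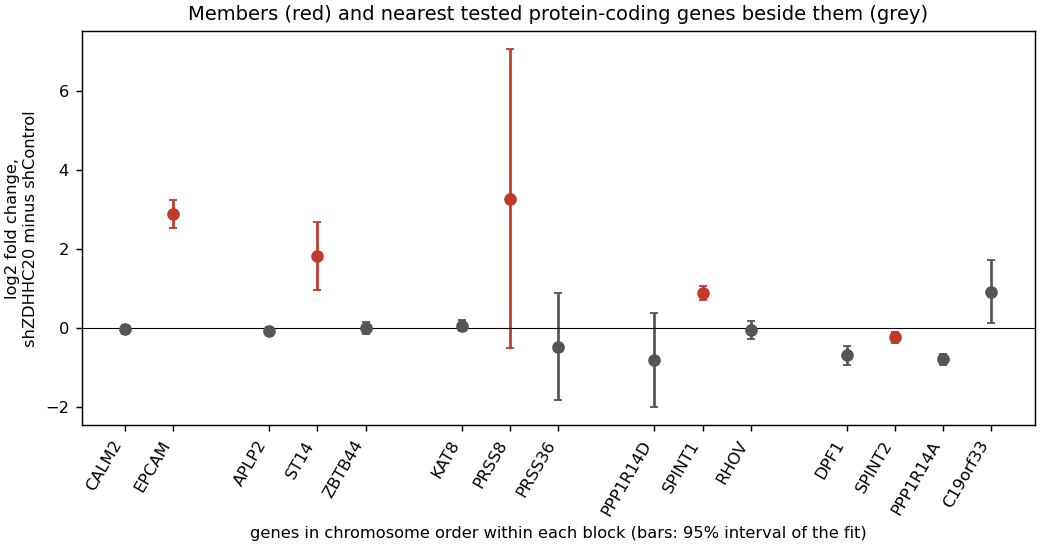
Log2 fold changes with 95% intervals of the fit for the 5 genes (red) and nearest tested protein-coding genes beside them (grey), in chromosome order within each block. Around EPCAM, ST14 and SPINT1 the neighbours drawn lie near or below 0. For EPCAM this is CALM2 only, 168557 bases away. Around SPINT2 the neighbours DPF1 (-0.69) and PPP1R14A (-0.78) lie below 0, while C19orf33 lies above it at 0.93 (interval 0.14 to 1.72).

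Of the 5 genes, only SPINT1 was in the RefSeq promoter table (GRCh38.p14). The sequence upstream of its first annotated exon is shown with promoter windows of MST1R and CLDN7, a receptor and a partner gene described below. These are examples of transcripts that were higher with shZDHHC20. The window of TFPI, another such gene, had 193 bases and none of the motifs searched, and it is not printed. Capitals mark GC boxes (GGGCGG or CCGCCC) and E-boxes bound by ZEB and SNAI repressors (CACCTG or CAGGTG), searched on both strands with overlaps counted. The SPINT1 sequence is chr15:40843798-40844017 (plus strand), that of MST1R chr3:49903874-49904123 and that of CLDN7 chr17:7263214-7263463 (both minus strand), each written 5′ to 3′. The CLDN7 window lies upstream of a RefSeq start but within the annotated span of the gene, chr17:7259903-7263983. The TFPI window likewise lies within the annotated span of its gene.
SPINT1: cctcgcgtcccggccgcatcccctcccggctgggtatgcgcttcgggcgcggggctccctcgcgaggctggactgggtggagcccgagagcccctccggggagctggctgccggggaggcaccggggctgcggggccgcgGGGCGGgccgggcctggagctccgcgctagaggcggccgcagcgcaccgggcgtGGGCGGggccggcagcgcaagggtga
MST1R: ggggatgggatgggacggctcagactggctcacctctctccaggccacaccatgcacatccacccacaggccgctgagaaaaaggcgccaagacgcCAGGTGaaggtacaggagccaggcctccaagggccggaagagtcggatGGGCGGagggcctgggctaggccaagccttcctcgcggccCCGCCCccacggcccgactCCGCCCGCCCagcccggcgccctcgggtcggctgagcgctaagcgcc
CLDN7: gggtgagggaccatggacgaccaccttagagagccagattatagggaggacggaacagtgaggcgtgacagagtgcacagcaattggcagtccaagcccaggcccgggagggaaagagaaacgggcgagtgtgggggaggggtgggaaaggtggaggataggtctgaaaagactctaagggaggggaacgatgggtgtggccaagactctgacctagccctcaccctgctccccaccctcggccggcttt
SPINT1 held 2 GC boxes and no E-box. MST1R held 4 GC boxes and 1 E-box, and CLDN7 held neither. GC boxes were in 38.9% of all promoter windows of 220 bases and 42.6% of those of 250 bases, and E-boxes were in 16.0% and 17.5%. The AP-1 motif (TGACTCA or TGAGTCA), in 3.77% and 4.2% of windows, was in none of the 3 sequences. A match is a description of the letters and not of a bound site.

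The genes around this system were then counted from 6 lists of 115 genes, of which 90 had a row and 82 were tested. With shZDHHC20, 7 were higher and 12 lower at an adjusted p under 0.05 (limma, adjusted over all genes), or 23.2%, and 63 did not pass, beside 11.5% of all genes. The share was 20% for EPCAM partners and processing, 28.6% for other Kunitz-domain genes and 0% for other membrane-anchored proteases. For serpins and other inhibitors it was 9.09%, for substrates and receptors 42.9% and for transcription factors 23.1%. The lists were chosen with earlier results known, so nothing is read from these shares. The median log2 fold change was -0.05 over the lists and 0.01 over all genes. The count was 26 without shZDHHC20 replicate 2, between 9 and 11 without any 1 of the 3 shControl libraries or shZDHHC20 replicate 1, and 3 without a mean-variance trend. Of the 17 genes past the threshold that are named here, 13 have a gene annotated on the other strand and are uncertain where the counting did not use strand.

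Of 20 tested partners and processing enzymes of EPCAM, 2 rose, 2 fell and 16 did not pass (median log2 fold change -0.03). CLDN7, the claudin that EPCAM binds, had 786, 800.5 and 813 normalized counts with shControl and 990.0, 1382 and 876 with shZDHHC20 (log2 fold change 0.41, SE 0.124, adjusted p = 0.0494). Every shZDHHC20 library was higher, but replicate 2 was by far the highest, and without it the log2 fold change was 0.22 (adjusted p = 0.022). CLDN7 passed under 6 of 13 alternatives, with adjusted p up to 0.33. The annotated gene AC003688.1 overlaps CLDN7 on the same strand, and its part in these values was not tested. APH1B, a subunit of the gamma-secretase that cuts EPCAM within the membrane, rose by 0.44 (SE 0.0921, adjusted p = 0.00766), from 263 to 304 normalized counts in shControl and 368 to 407 in shZDHHC20 libraries. The tetraspanins CD81 and CD9, which gather with EPCAM and claudins in membrane domains, each fell by 0.17 (adjusted p = 0.0264 and 0.0427), but CD81 passed under 5 and CD9 under 4 of 13 alternatives, with adjusted p up to 0.205 and 0.206. CD44, a partner at the surface (-0.14, adjusted p = 0.0785), and FHL2, which binds the released inner part of EPCAM (0.12, adjusted p = 0.0892), did not pass.

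Among other membrane-anchored serine proteases, 0 of 10 tested passed with limma, and 2 had an unadjusted p under 0.05 (PRSS22 and TPSG1, named after the values were seen). PRSS22 had a log2 fold change of 0.30 (adjusted p = 0.0634) and PRSS27 of -0.06 (adjusted p = 0.849), and these were the genes of highest level in the list. Of 22 genes in this list, 8 were not analysed here for want of a row and 4 had a mean under 1. Of the other Kunitz-domain genes, 7 were tested. TFPI, the inhibitor of tissue factor, rose from 1434 to 1530 normalized counts in shControl libraries to between 1690 and 2145 with shZDHHC20 (log2 fold change 0.39, SE 0.0806, adjusted p = 0.00663), with replicate 2 the lowest of the latter. COL6A3, a collagen chain that ends in a Kunitz domain, fell by 1.29 (SE 0.271, adjusted p = 0.00741), from 61.6, 41.2 and 44.1 to 20.1, 16.9 and 22.1 normalized counts. APP and APLP2, the Kunitz-domain genes of highest level, did not pass (log2 fold change -0.03, adjusted p = 0.742, and -0.06, adjusted p = 0.468). Of 11 serpins and other inhibitors tested, 1 fell and 10 did not pass, among them the intracellular serpins SERPINB6 (log2 fold change 0.12, adjusted p = 0.217) and SERPINB1 (0.09, adjusted p = 0.544).

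The substrates of the proteases and the receptors of the factors they release were the list with most genes past the threshold. These were 9 of 21 tested, 3 higher and 6 lower (median log2 fold change -0.07), or 42.9% beside 11.5% of all genes. Since the lists were chosen with earlier results of these data known, nothing is read from this share. Of 4 subunits of the epithelial sodium channel, which prostasin and matriptase can activate, SCNN1A and SCNN1G rose, and SCNN1B (log2 fold change 0.29, adjusted p = 0.402) and SCNN1D (0.43, adjusted p = 0.166), named after their values were seen, did not pass. SCNN1A had 223, 197 and 213 normalized counts with shControl and 341, 279 and 331 with shZDHHC20 (log2 fold change 0.58, SE 0.107, adjusted p = 0.00331). SCNN1G had 14.1, 20.1 and 13.02 with shControl and 26.5, 46.0 and 38.5 with shZDHHC20 (1.22, SE 0.325, adjusted p = 0.0277). SCNN1G passed under 8 of 13 alternatives, with adjusted p (limma) up to 0.12. Among those it did not pass was the fit without shZDHHC20 replicate 2 (1.04, adjusted p = 0.0643). MST1R, the receptor RON for macrophage-stimulating protein, rose by 0.33 (SE 0.0698, adjusted p = 0.00779), from between 573 and 626 to between 721 and 764 normalized counts.

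The substrates and receptors that fell included surface receptors and secreted proteins. EGFR had 7388, 7411 and 7610 normalized counts with shControl and 5200.2, 4920.1 and 5238 with shZDHHC20 (log2 fold change -0.55, SE 0.045, adjusted p = 9.03e-06). PLAU, the gene of urokinase, had 4713, 4769 and 4867 with shControl and 3402, 3524 and 3291 with shZDHHC20 (-0.49, SE 0.0472, adjusted p = 2.69e-05). Both remained past the threshold under all 13 alternatives. F2RL1, the protease-activated receptor that matriptase cuts, fell by 0.32 (adjusted p = 0.000332) and IGFBP7, a secreted binding protein, by 0.57 (adjusted p = 0.000402). CDCP1, a surface protein cut by serine proteases, fell by 0.23 (adjusted p = 0.0265), but it passed under 8 of 13 alternatives, with adjusted p (limma) up to 0.237. MET, the receptor of hepatocyte growth factor (-0.07, adjusted p = 0.578), and PDGFC (0.13, adjusted p = 0.404) did not pass.

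Of 13 transcription factors of epithelial genes tested, 1 rose and 2 fell (median log2 fold change -0.18). ELF3, an epithelial ETS factor, had 1122, 1110 and 1182 normalized counts with shControl and 1556, 1766 and 1542 with shZDHHC20 (log2 fold change 0.51, SE 0.066, adjusted p = 0.00027). GRHL3, a Grainyhead-like factor of barrier genes, fell by 0.39 (SE 0.0611, adjusted p = 0.00103), from between 1163 and 1254 to between 913 and 951. ZEB1, a repressor of epithelial genes including CDH1, fell by 0.29 (SE 0.0723, adjusted p = 0.02), from between 583 and 608 to between 466 and 499. ZEB1 passed under 8 of 13 alternatives, with adjusted p (limma) up to 0.103. The groups did not overlap for 6 of the 13 factors tested, these among them, beside 28.6% of all genes. The factors described here were named because they passed, so the gap between their groups adds nothing to that. KLF4 (-0.27, adjusted p = 0.0535) and SNAI1 (-0.41, adjusted p = 0.207) did not pass.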

How the data were processed

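The 3 shControl and 3 shZDHHC20 libraries of PANC-1 cells were analysed from a gene table. Its values, as the authors deposited them, are a normalized signal under the name FPKM. Each library's values were whole multiples of 1 step (largest distance 0.00016 of a step; steps 0.939 to 1.06), as gene counts divided by 1 factor, with no division by gene length. The build in the submitters' notes is hg19, and the aligner and counter are not given in the sources used here. In steps, libraries summed to 16575546 to 18441049. Columns named NC and siZDHHC20 were matched to shControl and shZDHHC20 by group and number.

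The reference table named 27175 of 27394 identifiers and GENCODE 29 (GRCh38) the rest, with positions, overlaps and exon lengths. In R 4.3.3 with limma 3.58.1, log2(value + 0.1) was fitted on group for genes averaging 1 or more, with eBayes moderation along the mean-variance trend. Tests were two-sided, with Benjamini-Hochberg adjustment over all genes. Likeness to EPCAM was the root mean square difference of log2 values centred on each gene's mean. Figures were drawn in Python 3.11.15 with matplotlib 3.10.9. The fit was tested on simulated data.

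The members and lists were chosen with earlier results of these data known. Named genes were the 5 members, ZDHHC20, list genes past the threshold, the 2 of highest mean per list that were not, the nearest tested genes on each side and the 5 most like EPCAM. Results for some single genes are left out and not reported here. PPP1R14A, SPINT1-AS1 and the duct, immune and acinar markers were given beside results they touch. The settings varied were the pseudocount (1), the filter (none, or a mean of 5 or more), the scaling (median-ratio or quantile), the trend (none), the terms (replicate block) and the libraries (each left out in turn).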

Additional observations from a re-analysis of the deposited data

How the results depend on the processing

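EPCAM (2.72 to 3.11), ST14 (1.57 to 1.98) and SPINT1 (0.86 to 0.94) kept their direction on the log2 scale under 13 alternatives, as did SPINT2 (-0.32 to -0.13). PRSS8 had a value under 11 (1.32 to 4.44), since it had a mean under 1 without shZDHHC20 replicate 1 and under 5 throughout, and its lowest value, 1.32, came with a pseudocount of 1. Genes past the threshold numbered 2541, and 351 without a mean-variance trend. Leaving out 1 library gave 1233 to 4454. Of the 82 list genes, 19 passed, 3 passed without a trend, and 9 to 26 passed when 1 library was left out. The cause of these differences was not tested, beyond that fewer libraries enter the fit when 1 is left out. Of the 5 genes most like EPCAM, 3 were shared without shZDHHC20 replicate 2. With a replicate block, 1942 genes and 16 list genes passed, CD81 and CD9 being among those lost. Deviations of libraries with the same number correlated at -0.192, -0.271 and -0.0784, and none matched its own number best. With 3 libraries per group, this check cannot decide whether libraries of the same number were prepared together. Of 19 list and neighbouring genes past the threshold that are named, 4 passed under all 13 alternatives (EGFR, PLAU, PPP1R14A and DPF1), none changed direction, and 15 were lost without a trend. Changes of direction were seen 11 times among the named list and neighbouring genes, all in genes that did not pass. They came with quantile normalization for APP (0.0881), CALM2 (0.0491) and ZBTB44 (0.0091), and when 1 library was left out for MET (-0.118 to 0.0127), PRSS36 (-0.875 to 0.123), CALM2 (-0.0741 to 0.044), PRSS27 (-0.179 to 0.0295), RHOV (-0.146 to 0.0363) and ZBTB44 (-0.0518 to 0.0700). The count tests edgeR and DESeq2, planned on recovered reads, were not run. Depth limits PRSS8 and, less, ST14.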

Other observations

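Among markers of gland-forming carcinoma cells, 9 of 11 had a row and 8 were tested, of which 2 rose and 6 did not pass. AGR2, a disulfide isomerase of secretory epithelia, rose to 135% of its shControl level (2422 ± 52.6 to 3271 ± 153 normalized counts, SD, n = 3 each; limma, adjusted p = 0.000148), and MUC1, a membrane mucin, to 130% (201 ± 18.1 to 262 ± 26.0; limma, adjusted p = 0.0452). The summed level of the list, most of it AGR2, ran from 2636 to 2761 in shControl and from 3531 to 3779 in shZDHHC20 libraries. SOX9, a ductal transcription factor, fell by 0.33 on the log2 scale (limma, adjusted p = 0.00146), the 1 gene of 5 tested duct markers that passed. COL1A1, a collagen listed as a fibroblast marker, fell by 0.27 (limma, adjusted p = 0.00288), the 1 gene of 3 tested fibroblast markers that passed. COL3A1 had 67.7, 79.3 and 82.1 normalized counts with shControl and 91.2, 78.9 and 88.5 with shZDHHC20, and LUM had 0 in each shControl library and 3.18, 0.939 and 2.89 with shZDHHC20.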
